A study of Mus musculus with 16 samples.

Results

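The response of the mouse cortex to lipopolysaccharide (LPS) given at ZT13 was examined by comparing the 5 cortex samples titled as evening LPS with the 3 titled as evening PBS, which are 8 of the 16 samples of the study. ZT13 is 1 hour after lights-off, and LPS is a component of the outer membrane of Gram-negative bacteria. All mice were 2-month-old male wild-type C57Bl6 animals that received 2 mg/kg LPS or phosphate-buffered saline (PBS) by i.p. injection on 2 consecutive days at the same time of day (TOD), and the cortex was collected on the third day from perfused mice. The other 8 samples, 5 LPS and 3 PBS, came from mice injected at ZT1 and are used only where the response at ZT13 is set beside the response at ZT1. Total RNA was sequenced after depletion of ribosomal RNA, so the libraries hold transcripts of every cell type in the dissected tissue. Each library is labelled as 1 mouse, and p-values measure the spread between these mice.

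LPS is bound by the LPS-binding protein and CD14 and is sensed by Toll-like receptor 4, which activates the transcription factor NF-kappaB and, through a second branch, type I interferon. LPS given outside the brain reaches endothelial cells and perivascular macrophages first, and their signals and circulating cytokines act on microglia and astrocytes. Cytokines of the IL-6 family act through STAT3, and interferons through other STAT factors and IRF9. In bulk tissue, fewer cells of a type and less RNA per cell cannot be told apart, and this holds for each cell type list described here.

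The libraries at ZT13 held 21620307 to 26388294 reads on genes. Values are CPM, in which the reads on a gene are divided by all reads on genes of that library and scaled to 1 common total. CPM is not corrected for gene length, so it compares 1 gene between mice and not 1 gene with another. Per-mouse values are given throughout in the order of replicate number, first the 5 LPS mice and then the 3 PBS mice. The titles give the treatment, because a separate treatment field contradicts the title for 6 of these 8 samples. *Gfap*, the intermediate filament gene of reactive astrocytes, was at 791 to 1134 CPM in the 5 libraries titled LPS and at 113 to 120 CPM in the 3 titled PBS. Across genes, Pearson's r of log2 values was 0.990 to 0.994 between LPS mice, 0.993 between PBS mice and 0.968 to 0.978 between an LPS and a PBS mouse. LPS replicate 5 stood apart from the other LPS mice on the second principal component, which held 7.31% of the variance, and it had the lowest interferon, MHC class I and neutrophil list values of the LPS group.

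LPS changed 5401 of 18859 tested genes, or 28.6%, at an adjusted p under 0.05 in the limma fit. These differentially expressed genes (DEGs) were 3629 genes that rose (19.2%) and 1772 that fell (9.40%). Increases were far larger than decreases. DEGs higher by more than 1 on the log2 scale numbered 822 against 34 lower, and 73 were higher by more than 3 against 0 lower. The median log2 fold change was 0.46 over DEGs that rose, -0.25 over DEGs that fell and 0.05 over all genes tested. The balance of directions depended on scaling: 67.2% of DEGs were higher with library totals, 51.0% with median-of-ratios factors (2870 higher, 2759 lower) and 45% with quantile normalization (2540 higher, 3106 lower). Quantile normalization moved the median of all genes by -0.11. The same direction was called under all 3 scalings for 3879 genes, 2237 higher and 1642 lower. Without LPS replicate 5 there were 5547 DEGs.

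The counts in each direction also differed with the level of the gene, taken as the mean over LPS and PBS mice. When the tested genes were divided by mean CPM into 5 bins of equal size, 712 genes rose and 966 fell in the highest bin, while 519 rose and 75 fell in the lowest. Of the DEGs, 1758 (32.5%) changed by less than 0.25 on the log2 scale. Of the 5401 DEGs, 4902 had no overlap between the LPS and PBS values, and of all 18859 tested genes 5876 (31.2%) had none. DEGs were called from these same values, so their lack of overlap is in part built in. In the lists described next, 640 distinct genes were tested, of which 360 rose and 109 fell. Over all genes tested 19.2% rose and 9.40% fell, and the counts of each list are to be read beside these shares. A gene could pass the expression filter through the LPS mice alone, and such a gene was in part selected for being higher after LPS. The filter counted the LPS mice of both times, so it did not force a rise at ZT13. Of the tested genes, 1326 would not have passed on the 6 PBS mice of both times alone. Among the 17533 that would have, 3159 rose and 1771 fell (median 0.04). The 1326 genes were not taken out of the 5 bins above, and their part in the counts of the lowest bin was not tested. Where the filter bears on several members of a list, the counts over its members that pass on PBS mice alone are given beside it.

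**Figure D1:**
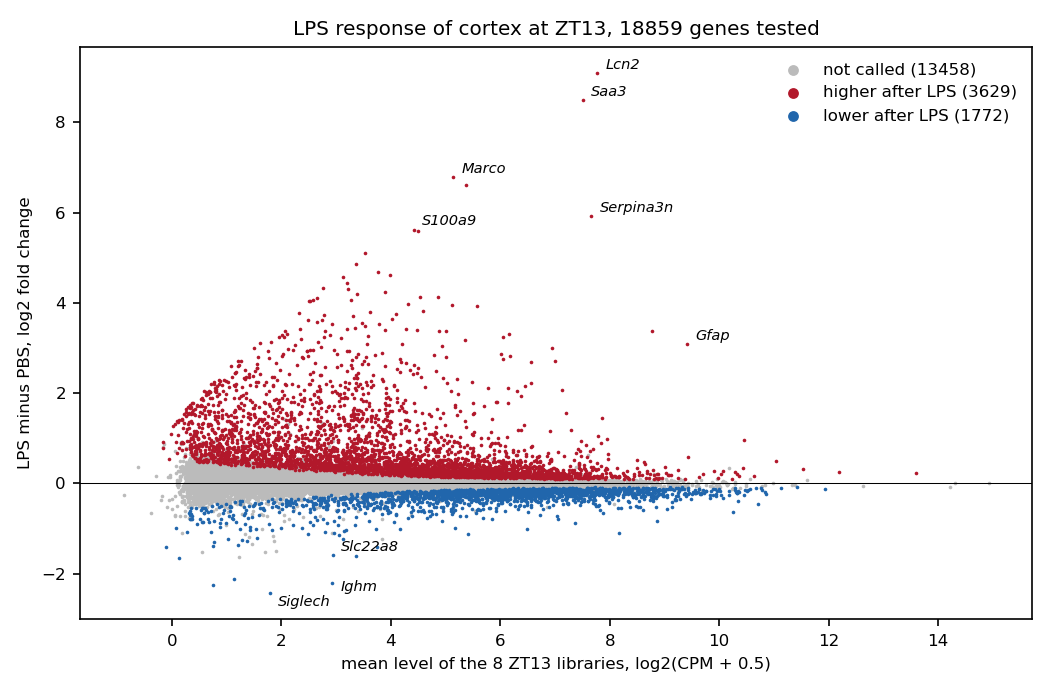
Mean level of each of the 18859 tested genes over the 8 libraries at ZT13, as log2(CPM + 0.5) on the horizontal axis, against its log2 fold change, LPS minus PBS, on the vertical axis. Red points are the 3629 genes that rose, blue points the 1772 that fell and grey points the other genes; the red points reach 9.10 (*Lcn2*) and the blue points -2.43 (*Siglech*).

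*Lcn2*, *Saa3*, *Marco*, *C3* and *Serpina3n* had the 5 largest increases. *Lcn2* (ENSMUSG00000026822, chromosome 2, 32384633 to 32388252, GRCm38) encodes lipocalin 2, which binds bacterial siderophores. It was at 333, 308, 406, 418 and 278 CPM after LPS and at 0.0759, 0.139 and 0.179 CPM after PBS, a log2 fold change of 9.10 (SE 0.12, adjusted p = 4.9e-15). *Saa3* (chromosome 7, 46711998 to 46715700), a serum amyloid A gene made outside the liver, was at 265, 295, 333, 357 and 203 CPM after LPS and at 0.342, 0.231 and 0.314 CPM after PBS, a log2 fold change of 8.49 (SE 0.14). For both genes every LPS mouse was above every PBS mouse, and replicate 5 was the lowest LPS mouse. *Serpina3n* (chromosome 12, 104406729 to 104414329), an astrocyte-enriched protease inhibitor, had the smallest adjusted p of all genes, 4.6e-16. It was at 323, 339, 325, 328 and 288 CPM after LPS and at 5.01, 5.04 and 4.30 CPM after PBS, a 67.0-fold difference of means. The 5 LPS mice differed little among themselves in this gene, with replicate 5 the lowest.

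*Marco* (chromosome 1, 120474538 to 120505024), a macrophage scavenger receptor for bacteria, was at 50.4, 50.4, 54.3, 68.1 and 54.1 CPM after LPS and was not detected in any PBS mouse. It was therefore at least 399.6-fold higher, taking 3 reads per library as the floor. *Mmp3* (chromosome 9, 7445822 to 7455975), the matrix protease stromelysin 1, was at 17.7, 13.2, 22.0, 25.4 and 9.72 CPM after LPS and also at 0 in the 3 PBS mice, at least 127-fold higher. For genes at 0 after PBS, such as these, the fitted log2 fold change depends on the pseudocount. *C3* (chromosome 17, 57203970 to 57228136), the central component of complement, was at 67.4, 52.6, 72.0, 70.2 and 66.3 CPM after LPS and at 0.266, 0.185 and 0.0896 CPM after PBS, a log2 fold change of 6.6 (SE 0.11). Replicate 2, not replicate 5, was the lowest LPS mouse for *C3*. The other genes among the 10 largest increases were *S100a9*, *Ccl5*, *Chil3* and *Cybb*, described with their lists below. These genes were chosen for groups that do not overlap, so a low exact permutation p (two-sided) was built in. It was 0.0179, the smallest that 5 mice against 3 can give.

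**Figure D2:**
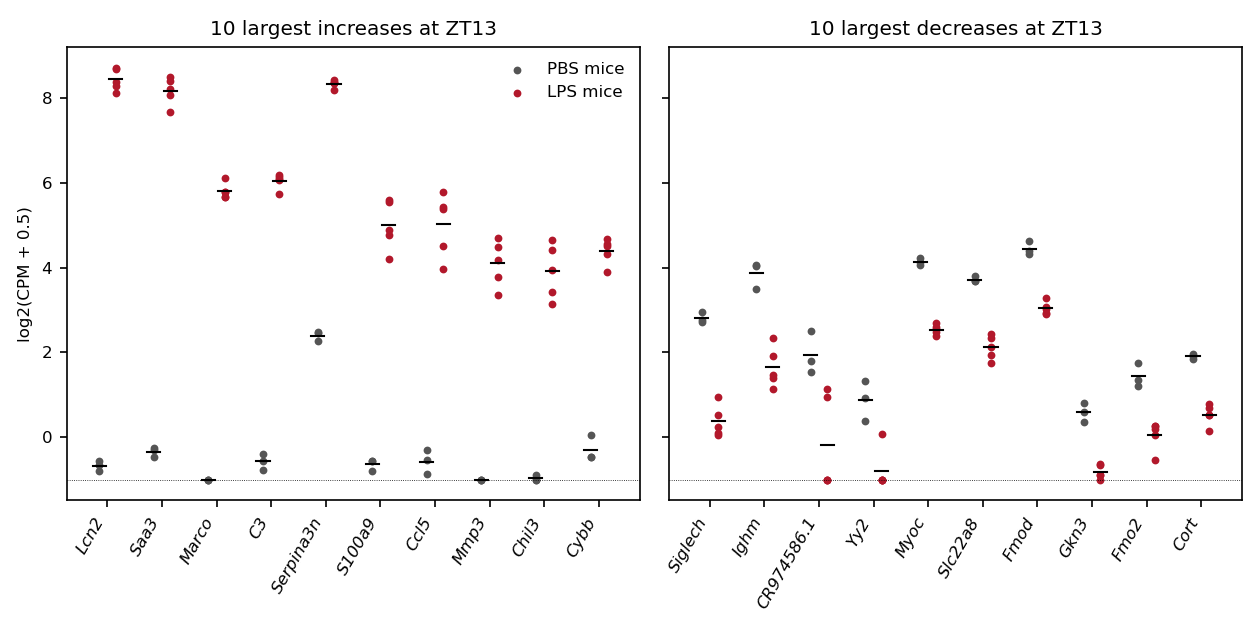
Level in each of the 8 mice at ZT13, as log2(CPM + 0.5) on the vertical axis, for the 10 genes with the largest increases (left panel) and the 10 with the largest decreases (right panel). Grey points are the 3 PBS mice, red points the 5 LPS mice and bars the group means; the 2 groups do not overlap for any of the 20 genes, and the dotted line marks a CPM of 0.

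The largest decreases were smaller in size than the largest increases. *Siglech* (chromosome 7, 55768178 to 55778925), a sialic acid-binding receptor of microglia, was at 0.930, 0.688, 0.545, 0.568 and 1.43 CPM after LPS and at 7.21, 6.29 and 6.05 CPM after PBS, a log2 fold change of -2.43 (SE 0.19, adjusted p = 5.3e-07). *Ighm* (chromosome 12, 113418558 to 113422730), the immunoglobulin M heavy chain, was at 3.28, 1.72, 2.14, 2.27 and 4.57 CPM after LPS and at 15.9, 10.7 and 16.3 CPM after PBS (log2 fold change -2.21). *Slc22a8* (chromosome 19, 8591254 to 8611835), an organic anion transporter of brain endothelium and choroid plexus, was at 3.85, 4.56, 2.89, 3.33 and 4.93 CPM after LPS and at 12.3, 12.3 and 13.3 CPM after PBS (log2 fold change -1.60). In each of these 3 genes every LPS mouse was below every PBS mouse. *Myoc*, a secreted glycoprotein, fell from 17.0, 16.3 and 18.1 CPM after PBS to 4.70 to 5.93 CPM after LPS, and *Fmod*, a collagen-binding proteoglycan, fell by 1.4 on the log2 scale. *Cort*, a neuropeptide of a subset of inhibitory neurons, was at 0.606 to 1.22 CPM after LPS and at 3.10 to 3.42 CPM after PBS. The remaining genes of the 10 largest decreases, *Gkn3*, *Fmo2*, *Yy2* and *CR974586.1*, had PBS values of at most 5.17 CPM.

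The promoters of 5 genes that rose are shown because each holds a letter match to the element of 1 of the pathways named above. The sequences are from RefSeq on GRCm38.p6, end 1 base before the transcription start and are written 5′ to 3′ on the strand of the gene, with matches in capitals. *Ifit1* and *Gbp2* are interferon-induced, *Nfkbia* encodes the inhibitor of NF-kappaB, *Socs3* the feedback inhibitor of STAT3, and *B2m* the light chain of MHC class I.
Ifit1, chr19:34640719-34640888, plus strand: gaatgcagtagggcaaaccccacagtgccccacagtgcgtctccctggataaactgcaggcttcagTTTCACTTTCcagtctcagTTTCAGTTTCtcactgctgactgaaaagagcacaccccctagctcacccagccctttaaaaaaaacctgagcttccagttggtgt
Gbp2, chr3:142620493-142620662, plus strand: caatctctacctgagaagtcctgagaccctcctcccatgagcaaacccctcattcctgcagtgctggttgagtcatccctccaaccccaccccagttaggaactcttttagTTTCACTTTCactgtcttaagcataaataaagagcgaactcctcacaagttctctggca
Nfkbia, chr12:55492648-55492817, minus strand: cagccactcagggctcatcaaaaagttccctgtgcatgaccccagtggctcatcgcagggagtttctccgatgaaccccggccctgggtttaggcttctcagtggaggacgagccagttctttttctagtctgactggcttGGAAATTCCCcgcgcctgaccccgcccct
Socs3, chr11:117969367-117969536, minus strand: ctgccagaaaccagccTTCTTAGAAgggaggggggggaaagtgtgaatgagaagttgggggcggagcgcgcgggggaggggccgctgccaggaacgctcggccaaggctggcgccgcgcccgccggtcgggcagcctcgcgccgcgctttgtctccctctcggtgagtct
B2m, chr2:122147517-122147686, plus strand: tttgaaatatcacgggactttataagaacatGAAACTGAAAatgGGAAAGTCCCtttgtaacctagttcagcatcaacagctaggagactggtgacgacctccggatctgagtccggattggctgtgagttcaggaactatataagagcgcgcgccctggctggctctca

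The capitals mark the interferon-stimulated response element (TTTC, any 2 bases and TTTC, on either strand) in *Ifit1*, where it occurs at 104 to 95 and at 85 to 76 bases before the start, and in *Gbp2* at 59 to 50 bases. In *Nfkbia* they mark an NF-kappaB site at 29 to 20 bases, and in *Socs3* a STAT site (TTCNNNGAA) at 154 to 146 bases. In *B2m* they mark the response element at 139 to 130 bases and an NF-kappaB site at 126 to 117 bases, both on the opposite strand. Within 250 bases before and 50 after the start, the response element was present in 15 of 23 interferon-stimulated genes with a promoter sequence (65.2%), against 3.69% of the 12258 tested genes with one. The NF-kappaB site was present in 10 of 15 genes of the NF-kappaB list (66.7%) and in 7 of 16 MHC class I genes (43.8%), against 12.4% of tested genes. Of the 73 genes higher by more than 3 on the log2 scale, 54 had a promoter sequence, and 22.2% of these held the NF-kappaB site, 18.5% the response element and 18.5% the STAT site, against 12.4%, 3.69% and 8.18% of tested genes. In the IL-6 and STAT3 list the STAT site was in 2 of 19 promoters (10.5%). Letter matches are descriptions and do not show that a factor was bound.

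Sensors of LPS and other microbial products rose together. Of 19 tested genes of LPS and Toll-like receptor signalling, 17 rose and 0 fell, with a median log2 fold change of 1.21 against 0.05 over all genes tested, and 12 of the 14 that pass the filter on PBS mice alone rose. *Tlr4*, the receptor that senses LPS, was at 2.97, 3.78, 3.40, 3.56 and 3.04 CPM after LPS and at 1.18, 0.879 and 1.34 CPM after PBS (log2 fold change 1.24, SE 0.14). Its co-receptor *Cd14* was at 7.40, 8.47, 8.72, 10.5 and 9.22 CPM after LPS and at 1.56, 1.25 and 1.03 CPM after PBS (log2 fold change 2.40, SE 0.13). *Tlr2*, a receptor for bacterial lipoproteins, had the largest change of the list, from 0.531, 0.601 and 0.582 CPM to 6.58 to 13.2 CPM. In these 3 receptor genes the groups did not overlap, and replicate 5 was the lowest LPS mouse for *Tlr2* only. *Irak3*, an inhibitor of the pathway in macrophages, rose by 2.63, and the adaptor *Myd88* by 1.21. *Traf6* and *Irak2*, which act between receptor and NF-kappaB, did not pass the test (log2 fold changes 0.15 and 0.01). *Ly96*, the partner of *Tlr4* in LPS binding, was below the expression filter.

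In the NF-kappaB list, 15 of 18 genes rose and 0 fell (median 0.91), and 1 fell with median-of-ratios factors. Among the 16 that pass the filter on PBS mice alone, 13 rose (median 0.81). *Bcl3*, a nuclear cofactor of NF-kappaB, was at 2.92, 4.47, 5.12, 5.08 and 5.02 CPM after LPS and at 0.266, 0.139 and 0.0448 CPM after PBS (log2 fold change 2.94, SE 0.19). The feedback inhibitors also rose. *Nfkbia* was at 42.3, 32.7, 40.3, 38.0 and 35.6 CPM after LPS and at 16.4, 20.7 and 20.8 CPM after PBS (log2 fold change 0.95, SE 0.09), and *Tnfaip3*, the ubiquitin-editing enzyme A20, rose by 1.38. *Birc3*, an inhibitor of cell death, rose by 1.99 and the precursor gene *Nfkb2* by 1.63. The subunits *Rela* and *Nfkb1* rose by 0.30 and 0.52, while *Rel* had a log2 fold change of 0.03 that did not pass the test.

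Cytokine transcripts themselves were scarce. Of 18 cytokine genes listed, 8 passed the expression filter, of which 4 rose and 2 fell (median 0.88). Of the 6 that pass on PBS mice alone, 2 rose and 2 fell (median 0.20). *Il1b* was at 1.95, 1.98, 2.05, 2.73 and 1.12 CPM after LPS and at 0.0380, 0.185 and 0 CPM after PBS (log2 fold change 2.08, SE 0.22). *Tnf* was at 0.797, 1.55, 1.34, 1.33 and 0.537 CPM after LPS and was listed at 0 in the 3 PBS mice. *Il6* and *Ifnb1* were below the filter in these libraries. The growth factors *Csf1*, which maintains microglia, and *Tgfb1* rose by 1.30 and 1.43 with no overlap between groups. *Il33* and *Il34*, made by glia and neurons, fell by 0.25 and 0.31, a pair of decreases that reduced to 1 without PBS replicate 1 or PBS replicate 3.

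Chemokine genes went in both directions. Of 13 tested ligands, 9 rose and 2 fell (median 1.39), but 7 of them passed the filter only with the LPS mice, and of the other 6, 2 rose and 2 fell (median 0.05). *Ccl5* (chromosome 11, 83525778 to 83530518), which attracts T cells and monocytes, was at 22.4, 41.1, 54.5, 42.8 and 15.2 CPM after LPS and at 0.190, 0.0463 and 0.314 CPM after PBS (log2 fold change 5.59, SE 0.32, adjusted p = 2e-08). *Cxcl10*, an interferon-induced ligand for T cells, was at 3.10, 2.32, 5.87, 7.62 and 0.806 CPM after LPS and at 0.0380, 0.0463 and 0 CPM after PBS (log2 fold change 2.81, SE 0.44). *Cxcl1*, which attracts neutrophils, was at 2.88, 2.36, 2.60, 2.77 and 3.76 CPM after LPS and at 0.0380, 0 and 0 CPM after PBS (log2 fold change 2.71, SE 0.16). LPS replicate 5 was the lowest of its group for *Ccl5* and *Cxcl10* and the highest for *Cxcl1*. *Cx3cl1*, the neuronal ligand of the microglial receptor CX3CR1, fell from 657, 686 and 687 CPM after PBS to 489, 533, 488, 547 and 585 CPM after LPS. *Cxcl14* fell by 0.33. *Cxcl12* had a log2 fold change of -0.17 that did not pass the test. *Ccl2* was below the filter.

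Of 22 acute phase genes, 11 were below the expression filter. The 11 tested genes rose, also under median-of-ratios factors and quantile normalization (median 2.90, and 2.72 to 2.85 under the other scalings), but 5 of them passed the filter only with the LPS mice. The other 6 also rose (median 2.30). Besides *Lcn2*, *Saa3* and *Serpina3n*, ceruloplasmin (*Cp*), a copper-carrying ferroxidase, was at 108, 87.6, 108, 109 and 82.9 CPM after LPS and at 10.4, 10.3 and 9.14 CPM after PBS (log2 fold change 3.25, SE 0.09). Haptoglobin (*Hp*), which binds free haemoglobin, was at 12.2, 11.2, 20.7, 18.5 and 7.66 CPM after LPS and at 0.152, 0.139 and 0.314 CPM after PBS (log2 fold change 4.30, SE 0.25). Metallothionein genes, which bind zinc, had smaller changes. *Mt1* rose by 1.45. *Mt2* rose by 0.70, but LPS replicate 5 at 45.7 CPM lay within the PBS range of 43.6 to 64.2 CPM. The liver-type genes *Saa1*, *Saa2*, *Orm1* and *Hpx* were below the filter.

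Of 22 genes of the IL-6 family receptors and STAT3 signalling, 14 rose and 1 fell (median 0.32), and 2 fell without PBS replicate 1. *Il4ra*, the receptor chain for IL-4 and IL-13, was at 25.7, 29.2, 35.2, 33.1 and 27.2 CPM after LPS and at 5.01, 4.63 and 5.91 CPM after PBS (log2 fold change 2.43, SE 0.11). *Socs3* was at 17.1, 21.6, 21.1, 23.1 and 18.0 CPM after LPS and at 2.77, 4.02 and 4.75 CPM after PBS (log2 fold change 2.27, SE 0.14). *Osmr*, the receptor for oncostatin M, was at 14.3, 17.0, 18.1, 18.8 and 12.8 CPM after LPS and at 2.66, 3.10 and 3.18 CPM after PBS (log2 fold change 2.25, SE 0.12). These 3 genes had no overlap between groups. *Stat3* rose by 1.19 and *Cebpd*, a transcription factor of the acute phase, by 1.74. The shared signalling chain *Il6st* rose by 0.34. *Lifr*, *Jak1* and *Socs2* did not pass the test (log2 fold changes 0.05, 0.07 and -0.04), and *Cntfr* fell by 0.26.

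Every one of the 32 interferon-stimulated genes rose, under all 3 scalings and without LPS replicate 5, and their CPM values did not overlap between the groups (median 2.17 against 0.05 over all genes tested). The 23 that pass the filter on PBS mice alone had a median of 2.05. *Oasl2*, an antiviral gene, was at 24.7, 23.4, 65.3, 51.4 and 12.1 CPM after LPS and at 1.14, 1.34 and 1.25 CPM after PBS (log2 fold change 4.12, SE 0.39). *Gbp2*, a guanylate-binding protein that attacks intracellular bacteria, was at 25.5, 29.3, 43.1, 45.9 and 8.24 CPM after LPS and at 1.37, 1.20 and 1.08 CPM after PBS (log2 fold change 3.97, SE 0.40). *Ifitm3*, a membrane protein that restricts viral entry, was at 69.0, 61.1, 91.9, 83.3 and 59.9 CPM after LPS and at 4.06, 4.07 and 4.66 CPM after PBS (log2 fold change 3.93, SE 0.12). In these genes LPS replicates 3 and 4 were the highest and replicate 5 the lowest. *Ifit1*, whose promoter is shown above, was at 10.6, 7.08, 21.8, 18.2 and 4.69 CPM after LPS and at 2.09, 1.93 and 1.63 CPM after PBS (log2 fold change 2.25, SE 0.37). The list summed to 461 to 739 CPM in LPS replicates 1 to 4, to 334 CPM in replicate 5 and to 108 to 112 CPM in PBS mice. The transcription factors *Irf7*, *Irf9* and *Irf1* rose by 3.42, 1.39 and 1.37.

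Genes of MHC class I presentation were also highest in LPS replicates 3 and 4 and lowest in replicate 5. All 18 rose, under all 3 scalings and without LPS replicate 5, with no overlap in CPM (median 2.25; 1.97 over the 14 that pass the filter on PBS mice alone). *H2-D1*, a classical heavy chain, was at 155, 174, 246, 214 and 123 CPM after LPS and at 20.5, 25.8 and 19.4 CPM after PBS (log2 fold change 3.0, SE 0.17). *B2m* was at 111, 114, 164, 145 and 81.8 CPM after LPS and at 27.1, 27.0 and 25.4 CPM after PBS (log2 fold change 2.15, SE 0.16). *Psmb8*, a subunit of the immunoproteasome that cuts peptides for presentation, was at 18.5, 17.9, 27.5, 26.9 and 11.2 CPM after LPS and at 1.48, 1.30 and 0.925 CPM after PBS (log2 fold change 3.54, SE 0.23). Across these 3 genes replicates 3 and 4 were again the highest and replicate 5 the lowest. *H2-Q4* and *H2-Q6* rose by 4.14 and 3.63, but genes of this family are near copies of each other, and how shared reads were assigned is not given in the sources used here. The transporter *Tap1* rose by 2.34 and the regulator *Nlrc5* by 2.93.

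MHC class II was less affected. Of 7 tested genes, 4 rose (median 0.70), and with quantile normalization 2 rose and 1 fell. Among the 4 that pass the filter on PBS mice alone, 2 rose (median 0.37). *Cd74*, the invariant chain, was at 6.86, 7.82, 9.73, 8.37 and 5.96 CPM after LPS and at 3.0, 2.31 and 2.33 CPM after PBS (log2 fold change 1.43, SE 0.15). *H2-Ab1* was at 2.35, 2.45, 3.10, 3.07 and 1.07 CPM after LPS and at 1.18, 1.02 and 1.25 CPM after PBS, so that replicate 5 lay within the PBS range (log2 fold change 0.76, adjusted p = 0.026, 0.099 with quantile normalization). *H2-Aa*, its partner chain, did not pass the test (log2 fold change 0.35), nor did the class II regulator *Ciita* (log2 fold change -0.06).

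**Figure D3:**
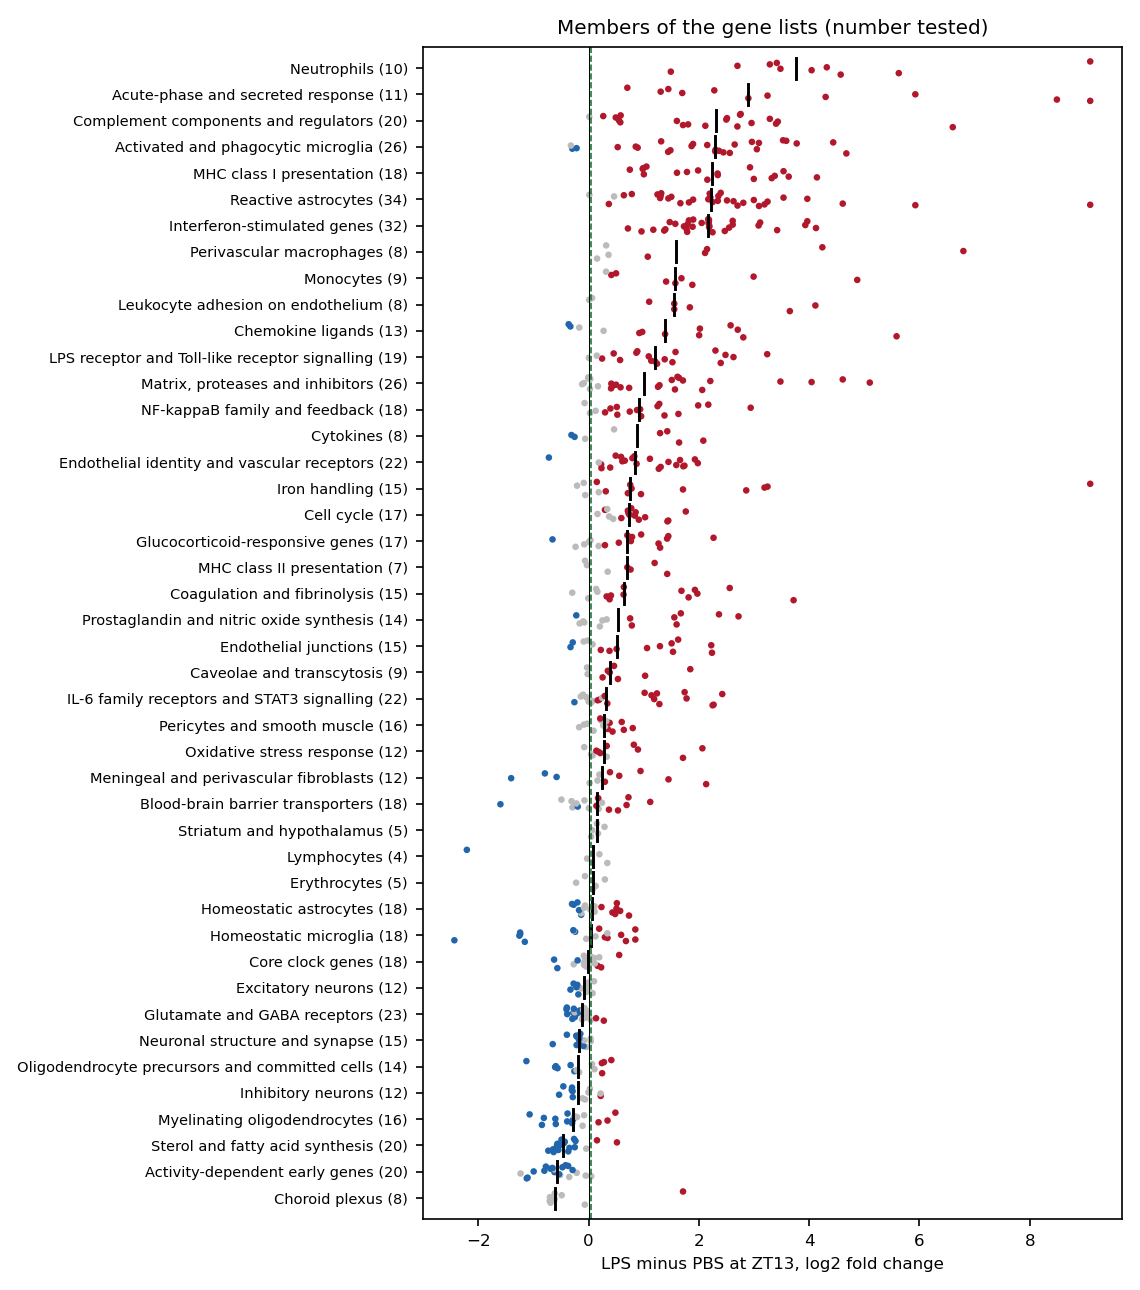
Log2 fold change, LPS minus PBS at ZT13 (horizontal axis), of each tested member of the 44 gene lists (rows, with the number tested). Red points rose, blue points fell and grey points did not pass the test, black bars are list medians and the dashed line is the median of all tested genes, 0.05; all points of the interferon-stimulated, MHC class I, neutrophil and acute phase lists are red.

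Complement genes rose almost throughout, with 19 of 20 tested genes higher (median 2.31; 16 with quantile normalization; 1.76 over the 16 that pass the filter on PBS mice alone, of which 15 rose). The classical pathway recognition subunits *C1qa*, *C1qb* and *C1qc*, made by microglia, rose by 2.12, 1.71 and 1.81 with little spread between mice. *C1qb* was at 69.8, 68.7, 71.6, 67.2 and 71.0 CPM after LPS and at 21.3, 20.9 and 20.5 CPM after PBS (SE 0.04, adjusted p = 7.2e-12). *C4b*, which acts with *C3*, was at 137, 142, 159, 133 and 117 CPM after LPS and at 17.5, 26.1 and 19.3 CPM after PBS (log2 fold change 2.70, SE 0.11). *Cfb* of the alternative pathway rose by 3.43. Inhibitors rose as well, *Serping1* by 2.51 and *Clu* by 0.58. *Cd59a*, a block to the final pore, did not pass the test (log2 fold change 0.01).

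Microglial genes split into those of activation, which rose, and those of the resting state, which went both ways. Of 26 tested genes of activated and phagocytic microglia, 23 rose and 2 fell (median 2.30). Of the 15 that pass the filter on PBS mice alone, 12 rose and 2 fell (median 1.87). *Cybb* (chromosome X, 9435252 to 9487771), the catalytic subunit of the phagocyte NADPH oxidase, was at 22.9, 19.6, 22.3, 25 and 14.3 CPM after LPS and at 0.228, 0.231 and 0.538 CPM after PBS (log2 fold change 4.67, SE 0.17). *Msr1*, a scavenger receptor, was at 11.9, 12.3, 15.3, 18.2 and 11.5 CPM after LPS and at 0.190, 0.0925 and 0.179 CPM after PBS (log2 fold change 4.44, SE 0.15). *Fcgr4*, an Fc receptor, was at 6.29, 6.06, 9.31, 10.04 and 4.39 CPM after LPS and at 0.0380, 0.0925 and 0 CPM after PBS (log2 fold change 3.77, SE 0.22). All 3 genes were lowest after LPS in replicate 5 and had no overlap with PBS. The oxidase subunits *Cyba*, *Ncf1* and *Ncf4* rose by 2.56, 2.45 and 2.30. The lipid-handling genes *Apoe* and *Lpl* fell by 0.22 and 0.29, the lipid receptor *Trem2* did not pass the test (log2 fold change -0.32), and *Itgax* and *Clec7a* were below the filter. The decreases reduced to 1 without LPS replicate 3 or PBS replicate 1.

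Of 18 homeostatic microglia genes, 7 rose and 7 fell, and the median of 0.04 was -0.01 with median-of-ratios factors, -0.11 with quantile normalization and 0.00 to 0.09 when 1 mouse was left out. *Tmem119*, a membrane protein of resident microglia, was at 21.8, 23.5, 23.1, 23.3 and 21.0 CPM after LPS and at 14.4, 13.4 and 13.9 CPM after PBS (log2 fold change 0.68, SE 0.06). *Cx3cr1* and *Csf1r*, receptors that microglia share with other myeloid cells, rose by 0.85 and 0.59. In the opposite direction, *P2ry12*, the receptor by which microglial processes sense ADP, was at 5.23, 6.15, 5.20, 3.52 and 6.09 CPM after LPS and at 13, 10.9 and 12.5 CPM after PBS (log2 fold change -1.16, SE 0.15). *Gpr34* and *Slc2a5* fell by 1.25 and 1.24, beside *Siglech* above. For each gene named here the LPS and PBS values did not overlap. *Sparc* and *Mef2c* of this list are also made by vessels or neurons.

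Perivascular macrophage genes were led by scavenger receptors. Of 8 tested genes, 5 rose (median 1.59), and 3 of the 4 that pass the filter on PBS mice alone rose. *Siglec1*, an adhesion receptor of macrophages, was at 20.1, 21.7, 23.2, 26.1 and 22.0 CPM after LPS and at 0.493, 0.694 and 1.03 CPM after PBS (log2 fold change 4.24, SE 0.13). *Stab1* and *Cd163*, receptors for cell debris and for haemoglobin bound to haptoglobin, rose by 2.11 and 1.07. *Mrc1*, *Lyve1* and *Cbr2*, which mark these cells at rest, did not pass the test (log2 fold changes 0.15, 0.36 and 0.32). *Mrc1* was at 4.47, 5.33, 7.13, 3.87 and 4.16 CPM after LPS and at 4.36, 4.72 and 3.94 CPM after PBS, with the groups overlapping.

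Most tested genes of the neutrophil and monocyte lists rose after LPS. The mice had been perfused, and which cells carried these transcripts was not tested. Of 15 neutrophil genes, 10 passed the expression filter, 8 of them only with the LPS mice, so that their increase (median 3.76, and 4.03 when genes not detected after PBS were set at their lower bounds) was in part fixed by the filter. All 15 listed genes summed to 345 to 582 CPM in LPS mice and to 5.27 to 6.45 CPM in PBS mice. *Lcn2* alone made up 278 to 418 CPM of the sum in LPS mice. The 2 that pass the filter on PBS mice alone also rose. *S100a9* (chromosome 3, 90692632 to 90695721), a subunit of calprotectin, was at 29.2, 26.6, 46.0, 47.3 and 17.8 CPM after LPS and at 0.0759, 0.185 and 0.179 CPM after PBS (log2 fold change 5.63, SE 0.25). *S100a8*, its partner, was at 12.9, 10.6, 18.4, 18.6 and 5.33 CPM after LPS and at 0, 0 and 0.0896 CPM after PBS (log2 fold change 4.57, SE 0.30). *Cxcr2*, the receptor for *Cxcl1*, was at 11.4, 7.61, 13.2, 13.4 and 4.93 CPM after LPS and at 0 in each PBS mouse. As in the interferon list, replicates 3 and 4 were the highest and replicate 5 the lowest. Of the defining markers, *Ly6g*, *Mpo*, *Elane*, *Camp* and *Ltf* were below the filter. *Lcn2* of this list is also made by astrocytes and endothelium.

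Of 9 tested monocyte genes, 8 rose (median 1.57, and 1.04 with quantile normalization), but 6 of the 9 passed the filter only with the LPS mice, and of the other 3, 2 rose (median 0.41). *Chil3*, a chitinase-like protein of myeloid cells, was at 14.8, 10.2, 24.6, 20.8 and 8.37 CPM after LPS and at 0, 0 and 0.0448 CPM after PBS. *Ccr2*, the receptor that draws monocytes to *Ccl2*, was at 1.42, 1.68, 2.21, 2.36 and 1.07 CPM after LPS and at 0.0380, 0.148 and 0.104 CPM after PBS (log2 fold change 1.88, SE 0.21). *Ly6c2* rose by 1.57. The share of the activated microglia and macrophage results that these cells carry was not tested. Lymphocyte genes were near the limit of detection: 4 of 16 passed the filter, *Ighm* fell and 0 rose (median 0.09, -0.15 with quantile normalization and -0.01 without PBS replicate 3). *Cd3e*, *Cd8a* and *Ms4a1* were below the filter.

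Reactive astrocyte genes rose in 32 of 34 tested cases, and 0 fell (median 2.23 against 0.05 over all genes tested). Of the 26 that pass the filter on PBS mice alone, 24 rose (median 2.05). *Gfap* (chromosome 11, 102887336 to 102900912) was at 1013 ± 137 CPM (SD, n = 5) after LPS and 118 ± 4.14 CPM (SD, n = 3) after PBS, a log2 fold change of 3.09 (SE 0.09, adjusted p = 3.1e-11). *Vim*, the second intermediate filament of reactive astrocytes, was at 175, 222, 201, 188 and 153 CPM after LPS and at 24.9, 33.3 and 27.2 CPM after PBS (log2 fold change 2.70, SE 0.11). *Timp1*, an inhibitor of matrix proteases, was at 24.3, 22.6, 25.4, 30.8 and 18.9 CPM after LPS and at 0.266, 0.786 and 0.538 CPM after PBS (log2 fold change 4.61, SE 0.17). The groups were far apart in all 3 genes. *Steap4*, a metalloreductase, rose by 3.19 and *Aspg* by 2.63. *Cd44*, *S1pr3* and *Emp1* rose by 1.82, 0.37 and 2.20, the call of *S1pr3* being lost with quantile normalization, while *Sphk1* and *Clcf1* did not pass the test (log2 fold changes 0.01 and 0.46). The list shares *H2-D1*, *H2-T23*, *Gbp2*, *Iigp1* and *Psmb8* with the interferon and MHC lists and *Lcn2*, *Serpina3n*, *Cp* and *Ptx3* with the acute phase list. It also shares *Cd14*, *Cxcl10*, *Serping1*, *Osmr*, *Timp1* and *Steap4*, among others, with further lists, so the counts of these lists are not separate.

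Astrocyte genes of the resting state moved in both directions: 7 of 18 rose and 5 fell (median 0.07, 0.03 without LPS replicate 5 or PBS replicate 1, and 0.01 and 0.11 under the other scalings). *Aqp4*, the water channel of astrocyte endfeet, was at 108, 101, 98.7, 113 and 86.4 CPM after LPS and at 67.5, 56 and 58.9 CPM after PBS (log2 fold change 0.73, SE 0.08). *Aldh1l1* and *Slc1a3*, a folate enzyme and a glutamate transporter, rose by 0.57 and 0.48. *Slc1a2*, the main glutamate transporter, had a small decrease of -0.13 that lost its call with quantile normalization. *Slc6a11*, a GABA transporter, fell by 0.30, while *Gja1* and *Kcnj10* did not pass the test (log2 fold changes -0.13 and 0.11). The number that fell was 2 without PBS replicate 2 or PBS replicate 3, and 3 without LPS replicate 2, 3 or 4.

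Vascular genes rose across several groups. Of 15 endothelial junction genes, 10 rose and 2 fell (median 0.51). *Cldn5* (chromosome 16, 18776847 to 18778262), the main claudin of the blood-brain barrier (BBB), was at 63.5, 71.4, 63.1, 56.4 and 58.6 CPM after LPS and at 10.4, 13 and 15.5 CPM after PBS (log2 fold change 2.24, SE 0.10, adjusted p = 2.8e-09), a 4.82-fold difference of means. *Pecam1* (chromosome 11, 106654217 to 106750628), a junctional adhesion molecule, was at 42.9, 46.2, 47.4, 45 and 47.4 CPM after LPS and at 8.12, 9.20 and 11.1 CPM after PBS (log2 fold change 2.23, SE 0.08). *Cdh5*, the cadherin of endothelial adherens junctions, was at 27.0, 34.6, 36.5, 34.5 and 37.5 CPM after LPS and at 11, 10.8 and 12.4 CPM after PBS (log2 fold change 1.53, SE 0.09). LPS replicate 5 was not the lowest LPS mouse for any of these 3 genes. *Vasp*, an actin regulator at junctions, rose by 1.63 and *Lsr* of tricellular junctions by 1.51. *Tjp1* and *Ocln*, a scaffold and a membrane protein of tight junctions, rose by 0.22 and 0.38, and *Ocln* lost its call with quantile normalization. *Cldn12* and *Jam2* fell by 0.29 and 0.33, and *Afdn* did not pass the test (log2 fold change -0.01).

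Of 22 genes of endothelial identity and vascular receptors, 20 rose and 1 fell (median 0.85; 17 rose with quantile normalization). *Vwf*, the platelet-binding protein of endothelium, was at 104, 133, 112, 111 and 111 CPM after LPS and at 25.9, 35.6 and 28.0 CPM after PBS (log2 fold change 1.93, SE 0.09). *Fli1*, an ETS factor of endothelial and blood cells, rose by 1.98. *Eng*, a TGF-beta co-receptor, was at 39.8, 46.7, 49.0, 54.3 and 52.4 CPM after LPS and at 14.5, 12.3 and 15.6 CPM after PBS (log2 fold change 1.74, SE 0.10). *Kdr* (chromosome 5, 75932827 to 75978458), the signalling receptor of VEGF, was at 15.4, 20.2, 17.5, 20.8 and 21.0 CPM after LPS and at 7.93, 6.61 and 8.02 CPM after PBS (log2 fold change 1.27, SE 0.11). The receptors rose while *Vegfa* itself fell, from 51.9, 45.3 and 54.6 CPM after PBS to 27.6 to 33.7 CPM after LPS. *Flt1*, which binds the same ligand, had a log2 fold change of 0.24 with overlap between the groups (adjusted p = 0.044), a call that was lost under both other scalings (adjusted p = 0.11 and 0.094). *Sox17* did not pass the test (log2 fold change 0.19).

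Adhesion molecules that hold leukocytes on the vessel wall rose in 6 of 8 tested cases (median 1.55), and in 4 of the 6 that pass the filter on PBS mice alone. *Selp*, P-selectin, was at 5.66, 8.23, 9.01, 9.38 and 14.2 CPM after LPS and at 0, 0.0463 and 0.0896 CPM after PBS (log2 fold change 4.11, SE 0.21). *Icam1*, a ligand of leukocyte integrins, was at 24.9, 23.1, 22.7, 22.5 and 27.9 CPM after LPS and at 1.48, 1.86 and 1.12 CPM after PBS (log2 fold change 3.65, SE 0.12). *Vcam1* was at 43.6, 37.0, 41.9, 41.0 and 39.9 CPM after LPS and at 16.1, 11.2 and 13.7 CPM after PBS (log2 fold change 1.55, SE 0.09). For the first 2 of these genes LPS replicate 5, the lowest mouse in the interferon and neutrophil lists, was the highest. *Sele*, E-selectin, was at 3.40 CPM in that mouse and at 0.559 to 1.30 CPM in the other LPS mice.

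Of 18 BBB transporter genes 7 rose and 2 fell (median 0.16), and under both other scalings 6 rose and 5 fell (medians 0.10 and 0.09). With library totals 19.2% of all tested genes rose and 9.40% fell, so the 2 that fell are near the general share. *Slc2a1*, the glucose transporter of brain endothelium, was at 130, 143, 136, 128 and 148 CPM after LPS and at 86.5, 90.0 and 108 CPM after PBS (log2 fold change 0.53, SE 0.07). *Abcb1a*, the drug efflux pump, rose by 0.37 and the amino acid transporter *Slc38a5* by 1.12. *Slc7a5* fell by 0.20 beside *Slc22a8* above, and *Mfsd2a*, a lipid transporter that limits transcytosis, did not pass the test (log2 fold change -0.29). The number that fell was 1 without LPS replicate 4 or PBS replicate 3 and 4 without LPS replicate 5. Of 9 caveolae and transcytosis genes, 7 rose and 0 fell (median 0.39; with quantile normalization 4 rose and the median was 0.19). *Ehd2*, a protein of the caveolar neck, was at 24.0, 25.4, 26.5, 28.3 and 25.3 CPM after LPS and at 6.68, 7.22 and 6.63 CPM after PBS (log2 fold change 1.85, SE 0.07). *Cavin1* and *Cav1*, the coat and the core protein of caveolae, rose by 1.03 and 0.53.

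Of 16 pericyte and smooth muscle genes, 7 rose (median 0.28; 4, with a median of 0.08, with quantile normalization and 3 without PBS replicate 2), and 0 fell, or 1 without LPS replicate 5. *Pdgfrb*, the pericyte receptor, was at 36.3, 36.1, 36.5, 36.4 and 38.2 CPM after LPS and at 26.5, 25.8 and 28.9 CPM after PBS (log2 fold change 0.44, SE 0.05). *Anpep* and *Kcnj8*, an ectopeptidase and a potassium channel of pericytes, rose by 0.80 and 0.64, and *Rgs5* did not pass the test (log2 fold change 0.09). Of 12 fibroblast genes, 6 rose and 3 fell (median 0.25, 0.39 without PBS replicate 2 and 0.16 with quantile normalization). *Dcn*, a proteoglycan that binds collagen, was at 36.1, 32.4, 35.1, 37.0 and 31.3 CPM after LPS and at 6.95, 7.82 and 7.57 CPM after PBS (log2 fold change 2.13, SE 0.07). *Col3a1* rose by 1.45. *Fmod*, *Igf2* and *Ogn* fell by 1.4, 0.79 and 0.58. *Igf2* was at 98.3, 58.6 and 78.2 CPM after PBS, highest and lowest in the same PBS mice as the choroid plexus genes described below, and their part in that result was not tested.

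In the matrix list, 19 of 26 genes rose and 0 fell (median 1.00). Of the 21 that pass the filter on PBS mice alone, 14 rose (median 0.50). The basement membrane collagen *Col4a1* (chromosome 8, 11198423 to 11312826) was at 178, 193, 200, 208 and 198 CPM after LPS and at 44.3, 45.6 and 49.5 CPM after PBS (log2 fold change 2.06, SE 0.05, adjusted p = 7.2e-12). *Col4a2*, its partner chain, was at 175, 192, 193, 210 and 208 CPM after LPS and at 64.9, 62.3 and 69.7 CPM after PBS (log2 fold change 1.57, SE 0.06). *Mmp8* and *Mmp9*, proteases stored by neutrophils, rose by 4.05 and 3.48. *Mmp14*, *Adamts1* and *Adamts9*, proteases that act at the cell surface and on proteoglycans, rose by 1.71, 1.64 and 1.61. *Mmp2*, *Timp2* and *Timp3* did not pass the test (log2 fold changes -0.09, 0.03 and -0.01). Of 15 coagulation genes, 11 rose and 0 fell (median 0.64, 0.42 with quantile normalization and 0.38 over the 11 that pass the filter on PBS mice alone, of which 7 rose), apart from 1 that fell without PBS replicate 2. *Anxa2*, a cell-surface cofactor of plasmin formation, was at 27.7, 32.4, 36.0, 35.2 and 30.7 CPM after LPS and at 5.16, 5.92 and 4.21 CPM after PBS (log2 fold change 2.56, SE 0.10). The activator *Plat* rose by 0.38, and *Plau* did not pass the test (log2 fold change -0.01).

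**Figure D4:**
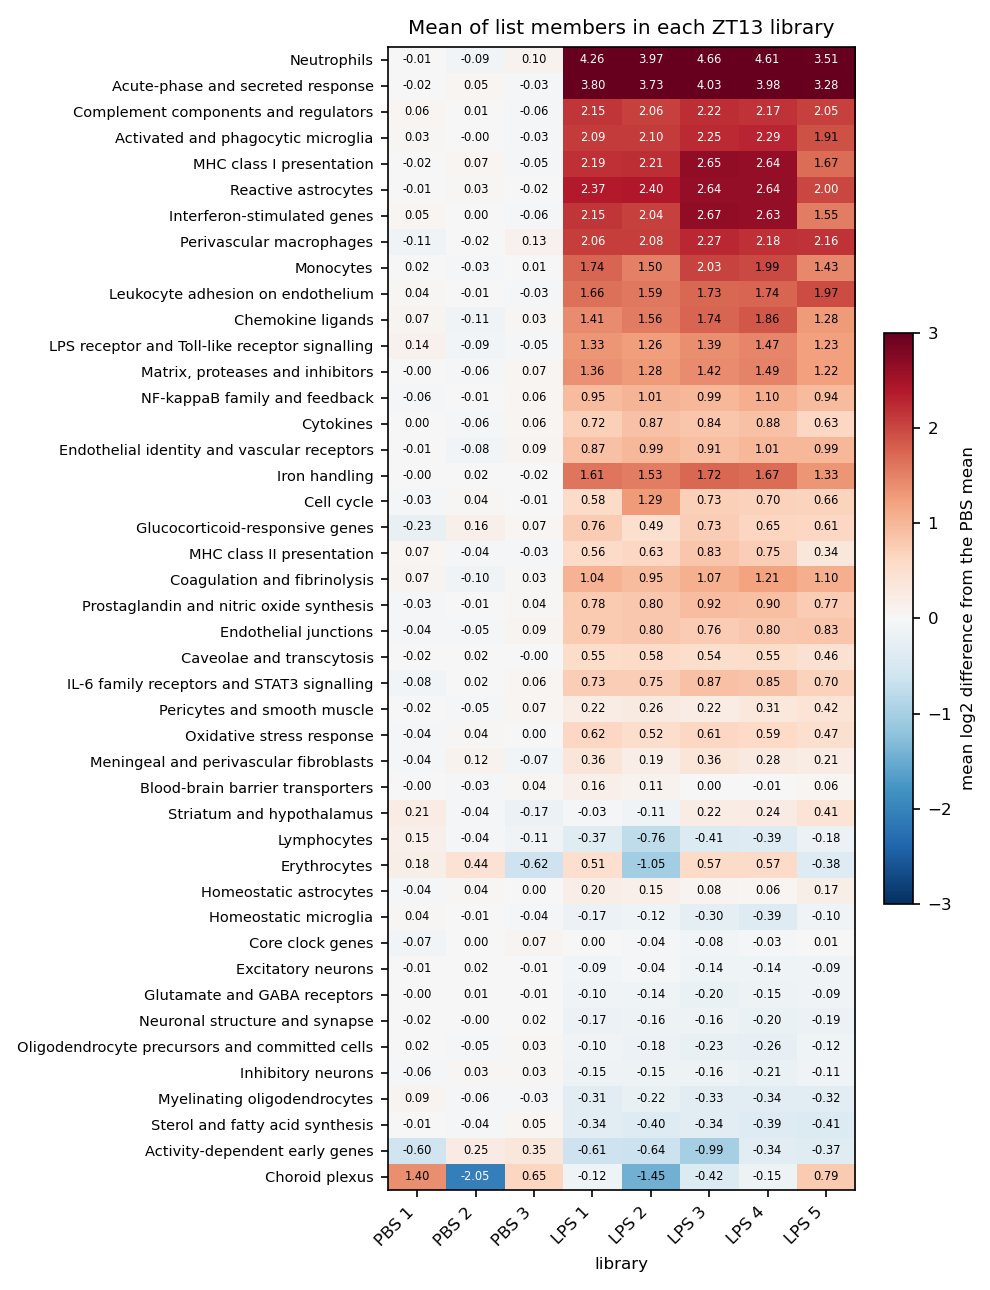
Mean log2 difference from the PBS mean over the tested members of each of the 44 gene lists (rows) in each of the 8 libraries at ZT13 (columns), printed in each cell and shown by colour from -3 (blue) to 3 (red). LPS replicate 5 has the lowest LPS value for the interferon-stimulated (1.55) and neutrophil (3.51) lists, and PBS replicate 1 (-0.60) lies among the LPS mice for the activity-dependent early genes.

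Of 15 iron-handling genes, 11 rose and 0 fell (median 0.76). Among the 13 that pass the filter on PBS mice alone, 9 rose (median 0.71). The storage subunits *Fth1* and *Ftl1* rose by 0.95 and 0.71, and the endosomal exporter *Slc11a1* by 2.86. *Slc40a1*, the cellular iron exporter, was at 6.02, 5.11, 5.37, 4.62 and 3.94 CPM after LPS and at 5.01, 5.13 and 5.47 CPM after PBS and did not pass the test. Of 14 prostaglandin and nitric oxide genes, 7 rose and 1 fell (median 0.54, and 0.31 with quantile normalization). The 13 that pass the filter on PBS mice alone included 6 that rose and 1 that fell (median 0.33). *Nos2*, inducible nitric oxide synthase, was at 2.61, 3.22, 4.70, 4.96 and 1.30 CPM after LPS and at 0.114, 0.139 and 0.358 CPM after PBS (log2 fold change 2.37, SE 0.30). *Nos3* of endothelium rose by 1.67, and *Nos1* of neurons fell by 0.22, and the number that fell was 0 without PBS replicate 3 and 2 without LPS replicate 5 or PBS replicate 1. *Ptgs2*, inducible cyclooxygenase, was at 14.6, 14.1, 15.8, 19.0 and 20.6 CPM after LPS and at 6.79, 11.7 and 10.6 CPM after PBS (log2 fold change 0.79, SE 0.16), and *Ptges*, the inducible prostaglandin E synthase, rose by 1.60. *Ptgs1* did not pass the test (log2 fold change 0.21).

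Of 12 oxidative stress genes, 8 rose (median 0.27, and 0.17 with quantile normalization), led by *Gpx3*, *Hmox1* and *Gpx1* at 2.06, 1.71 and 0.90. *Nqo1*, a standard target of NRF2, did not pass the test (log2 fold change 0.33). Glucocorticoid-responsive genes rose in 11 of 17 cases, and 1 fell (median 0.70). *Fkbp5*, a chaperone that restrains the glucocorticoid receptor, was at 119, 90.5, 125, 108 and 110 CPM after LPS and at 36.6, 52.5 and 45.4 CPM after PBS (log2 fold change 1.30, SE 0.11). *Angptl4* and *Plin4*, genes of lipid storage and use, rose by 2.27 and 1.42. *Tsc22d3*, another standard target, was at 54.7, 46.1, 65.1, 51.7 and 49.9 CPM after LPS and at 54.7, 69.1 and 65.0 CPM after PBS and did not pass the test. *Sgk1* and *Klf9* also did not (log2 fold changes 0.18 and 0.01). The one decrease was *Dusp1*; 0 genes fell without LPS replicate 2, PBS replicate 2 or PBS replicate 3, and 3 fell without PBS replicate 1.

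Neuronal genes fell by small amounts. In the neuronal structure and synapse list, 11 of 15 genes fell and 0 rose (median -0.17), and with quantile normalization 8 fell and 1 rose (median -0.09). *Tubb3*, neuronal tubulin, was at 193, 202, 215, 178 and 177 CPM after LPS and at 295, 295 and 317 CPM after PBS (log2 fold change -0.65, SE 0.06). *Gap43*, a growth cone protein, fell by 0.39 and the postsynaptic scaffold *Dlg4* by 0.22. *Rbfox3*, the gene of the nuclear marker NeuN, did not pass the test (log2 fold change -0.04). Of 12 excitatory neuron genes, 5 fell and 0 rose (median -0.09, -0.05 without LPS replicate 3 and -0.14 with median-of-ratios factors). *Slc17a7*, the vesicular glutamate transporter, fell by 0.18 and *Nrgn* by 0.27.

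Of 12 inhibitory neuron genes, 6 fell and 1 rose (median -0.20), with 0 higher under both other scalings. Neuropeptide genes led the decreases. *Sst*, somatostatin, was at 78.6, 76.9, 78.5, 81.0 and 85.2 CPM after LPS and at 116, 110 and 123 CPM after PBS (log2 fold change -0.53, SE 0.05). *Cck* was at 123, 147, 131, 129 and 130 CPM after LPS and at 170, 186 and 188 CPM after PBS (log2 fold change -0.46, SE 0.05). The GABA-synthesizing enzymes *Gad1* and *Gad2* did not pass the test (log2 fold changes -0.06 and -0.11). The single increase was *Pvalb* at 0.22. The number that rose was 0 without any one of LPS replicates 1, 2, 3 and 5 and PBS replicates 1 and 3, and 2 without PBS replicate 2. Among 23 glutamate and GABA receptor subunits, 10 fell and 2 rose (median -0.12), and with median-of-ratios factors 16 fell and 1 rose. *Gabrd* of extrasynaptic receptors and *Gabbr2* of metabotropic GABA receptors fell by 0.40 and 0.39. *Gria1*, an AMPA receptor subunit, rose by 0.28 from 351, 372 and 361 CPM after PBS to 418 to 455 CPM after LPS.

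Activity-dependent early genes, which neurons switch on within minutes of firing, were lower after LPS in 13 of 20 cases, and 0 were higher (median -0.58). The PBS mice did not form 1 level. *Fos* was at 27.5, 25.9, 18.7, 33.8 and 33.6 CPM after LPS and at 31.7, 79.4 and 85.2 CPM after PBS (log2 fold change -1.12, SE 0.27, adjusted p = 0.0059). *Arc* was at 157, 159, 133, 250 and 274 CPM after LPS and at 209, 501 and 623 CPM after PBS. PBS replicate 1 lay within the LPS range for both genes. *Npas4* was at 23.3, 27.8, 15.8, 30.2 and 33.6 CPM after LPS and at 50.8, 53.5 and 48.8 CPM after PBS, and it was the one gene of the list without overlap (log2 fold change -0.99, SE 0.17). The median was -0.89 without PBS replicate 1 and -0.36 without PBS replicate 3. The number that fell depended on single libraries: it was 4 without PBS replicate 2 or PBS replicate 3, 8 without LPS replicate 1, 7 without LPS replicate 2 or 3, and 19 without PBS replicate 1.

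Myelin genes fell in 9 of 16 cases, and 3 rose (median -0.29). *Opalin*, a membrane protein of oligodendrocytes, was at 3.94, 5.84, 3.86, 4.13 and 4.34 CPM after LPS and at 9.34, 7.54 and 7.39 CPM after PBS (log2 fold change -0.81, SE 0.13), with no overlap between the groups. *Mbp*, a main protein of myelin, did not pass the test (log2 fold change -0.11), and *Mobp* rose by 0.18. Of 14 genes of oligodendrocyte precursors and committed cells, 4 rose and 6 fell (median -0.19). *Pdgfra*, the precursor receptor, was at 79.1, 69.7, 71.2, 68.9 and 70.7 CPM after LPS and at 63.9, 56 and 61.8 CPM after PBS (log2 fold change 0.25, SE 0.06). Genes of the committed stage were lower: *Bmp4*, *Enpp6* and *Gpr17* fell by 0.59, 0.61 and 0.56, and *C1ql1* fell by 1.13.

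Sterol and fatty acid synthesis had the highest share of members that fell among the 44 lists. Of 20 genes, 17 fell and 2 rose (median -0.47), the same counts under all 3 scalings and without any single mouse. *Hmgcs1* (chromosome 13, 119690379 to 119708260), the first committed step of the mevalonate pathway, was at 110, 105, 109, 106 and 96.5 CPM after LPS and at 176, 168 and 181 CPM after PBS (log2 fold change -0.73, SE 0.05, adjusted p = 4.8e-08). *Idi1*, a later step, was at 13.1, 12.5, 13, 13.5 and 11.1 CPM after LPS and at 20.2, 20.3 and 19.4 CPM after PBS (log2 fold change -0.64, SE 0.07). *Srebf2*, the transcription factor of the pathway, fell by 0.43. The members that rose were *Srebf1*, the factor for fatty acid synthesis, at 0.52 and *Acaca* at 0.15.

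Cell cycle genes rose in 13 of 17 cases and 0 fell (median 0.74), and 8 rose with quantile normalization. Among the 12 that pass the filter on PBS mice alone, 10 rose (median 0.75). *Mki67*, a marker of dividing cells, was at 6.95, 20.5, 10.9, 9.32 and 8.42 CPM after LPS and at 3.95, 3.75 and 3.05 CPM after PBS (log2 fold change 1.43, SE 0.25). *Top2a* was at 2.57, 8.98, 4.74, 4.51 and 3.40 CPM after LPS and at 0.949, 1.80 and 1.30 CPM after PBS (log2 fold change 1.45, SE 0.28). LPS replicate 2 was the highest mouse for both. *Mcm3* of the replication helicase rose by 1.76 with less spread. Of 18 core clock genes, 3 rose and 3 fell (median -0.01), with 1 higher and 6 lower under median-of-ratios factors and 1 higher and 5 lower without PBS replicate 1. The 3 that rose are near the share of 19.2% over all genes tested, of which 9.40% fell. The clock median was 0.09 without PBS replicate 3. *Dbp*, a clock output factor, was at 69.7, 71.6, 70.0, 61.5 and 64.0 CPM after LPS and at 111, 91.5 and 98.0 CPM after PBS (log2 fold change -0.57, SE 0.06). *Arntl*, the activator of the loop, had a log2 fold change of 0.23 whose call (adjusted p = 0.021) was lost under both other scalings (adjusted p = 0.068 and 0.12), and *Per1*, *Cry1*, *Cry2* and *Clock* did not pass the test (log2 fold changes -0.08, -0.08, 0.06 and -0.04).

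Markers of neighbouring tissue varied between mice of 1 group. Choroid plexus genes summed to 981, 15.3 and 555 CPM in the 3 PBS mice and to 239, 36.4, 164, 201 and 595 CPM in the LPS mice. *Ttr*, transthyretin, was at 205, 20.5, 135, 165 and 528 CPM after LPS and at 875, 6.57 and 494 CPM after PBS and did not pass the test. *Aqp1* was the one gene of 8 called, higher after LPS (log2 fold change 1.71, adjusted p = 0.023), and 4 genes fell without PBS replicate 2. The list median of -0.61 was 0.00 without PBS replicate 1 and -1.47 without PBS replicate 2. Of 5 erythrocyte genes 0 rose and 0 fell (median 0.08, and -0.15 with quantile normalization), with medians of -0.07 to -0.27 without LPS replicate 1, 3 or 4 or PBS replicate 3, and the list summed to 6.6 to 25 CPM after LPS and to 9.39 to 19.9 CPM after PBS. Of 5 tested striatal genes 0 rose and 0 fell, apart from 1 that rose without LPS replicate 2 or PBS replicate 1. The part of these markers in the results above was not tested.

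The response at ZT13 was set beside that at ZT1 by the interaction of TOD and treatment over all 16 samples. For 30 genes, 0.159% of those tested, the log2 fold change differed between times at an adjusted p under 0.05, in 23 toward a higher value at ZT13 and in 7 toward a lower one. Unadjusted p-values under 0.05 numbered 1745. The number of interaction genes was unstable: it was 7 without ZT13 PBS replicate 2, 104 without ZT1 LPS replicate 1, 17 or 19 without ZT13 LPS replicate 4 or 5, 18 without ZT1 LPS replicate 3 or 5, and 13, 13 or 14 without ZT1 PBS replicate 1, 2 or 3. Over all tested genes the log2 fold change was larger at ZT13 in 54.0%, with a median difference of 0.01. Of the 30 genes, 28 were DEGs at ZT13.

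Of the 22 endothelial identity genes, 6 had an interaction, as did 3 of the 15 junction genes and 3 of the 26 matrix genes. The share over all tested genes was 0.159%. These lists were written with earlier results of these data known, so the counts describe the lists and do not test them. Of the 22 endothelial identity genes, 21 had a larger log2 fold change at ZT13 than at ZT1 (list medians 0.85 and 0.48), against 54.0% of all tested genes. *Cldn5* went from 13 ± 2.57 (SD, n = 3) to 62.6 ± 5.76 CPM (SD, n = 5) with LPS at ZT13 and from 28.0 ± 1.52 to 53.1 ± 13.2 CPM at ZT1, a difference of 1.36 in log2 fold change (SE 0.22, adjusted p = 0.013). *Kdr* rose from 7.52 ± 0.787 to 19.0 ± 2.45 CPM at ZT13, and at ZT1 it was at 15.8 ± 0.948 CPM after PBS and 15 ± 3.56 CPM after LPS, a difference of 1.39 (adjusted p = 0.013). In both genes the PBS mice were lower at ZT13 than at ZT1, and the difference in response includes that difference in the controls. The same limit holds for all 23 interaction genes with a higher value at ZT13, among them *Col4a1*, *Col4a2*, *C1s1* and *Cd93*, described next. Their PBS means were all lower at ZT13 than at ZT1, as in *Col4a1* (46.5 against 61.6 CPM) and *Col4a2* (65.6 against 84.1 CPM). *Col4a1* and *Col4a2* had differences of 0.94 and 0.90, and 25 of the 26 matrix genes had a larger log2 fold change at ZT13 (list medians 1.00 and 0.51). *C1s1*, a complement protease, went from 0.385 ± 0.0293 to 6.40 ± 0.860 CPM at ZT13 and from 0.887 ± 0.272 to 4.13 ± 0.847 CPM at ZT1. *Cd93*, a receptor of endothelial and myeloid cells, went from 6.30 ± 0.526 to 60.9 ± 3.22 CPM at ZT13 and from 9.64 ± 1.69 to 43.3 ± 9.68 CPM at ZT1.

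The genes with a lower value at ZT13 included clock outputs and a glucocorticoid target. *Dbp* fell from 100 ± 9.68 to 67.3 ± 4.36 CPM with LPS at ZT13, and at ZT1 it was at 46.8 ± 9.11 CPM after PBS and 58.8 ± 5.19 CPM after LPS, a difference of -0.91 (adjusted p = 0.011). *Ciart* and *Nr1d2* had differences of -1.14 and -0.40. *Hif3a* rose from 17.2 ± 2.07 to 29.7 ± 3.59 CPM at ZT13 and went from 3.90 ± 0.135 to 21.0 ± 4.25 CPM at ZT1, a difference of -1.50 (SE 0.19). For all 7 genes with a lower value at ZT13 the PBS mean was higher at ZT13 than at ZT1 (30.7 against 10.9 CPM for *Ciart*, 84.8 against 65.0 CPM for *Nr1d2*). The difference in response includes that difference in the controls. Among the 11 acute phase, 32 interferon-stimulated, 18 MHC class I and 10 neutrophil genes tested, 0 had an interaction. The share over all genes was 0.159%, too low for a count of 0 to set lists of this size apart. A larger log2 fold change at ZT13 was seen in 9, 25, 18 and 10 of them, in that order, without a test of the lists. Over all tested genes this share was 54.0%. Their list medians at ZT13 and ZT1 were 2.90 and 2.48, 2.17 and 2.09, 2.25 and 1.83, and 3.76 and 2.25. Of the 10 neutrophil genes, 8 passed the filter only with the LPS mice. Some other lists leaned the other way, with a larger value at ZT13 in 2 of 17 glucocorticoid-responsive and 3 of 18 core clock genes. In the BBB transporter and homeostatic microglia lists it was 6 of 18 genes each. For *Lcn2* the log2 fold changes were 9.10 and 8.19, with an interaction adjusted p of 0.35, so a difference between times was not detectable in these samples.

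**Figure D5:**
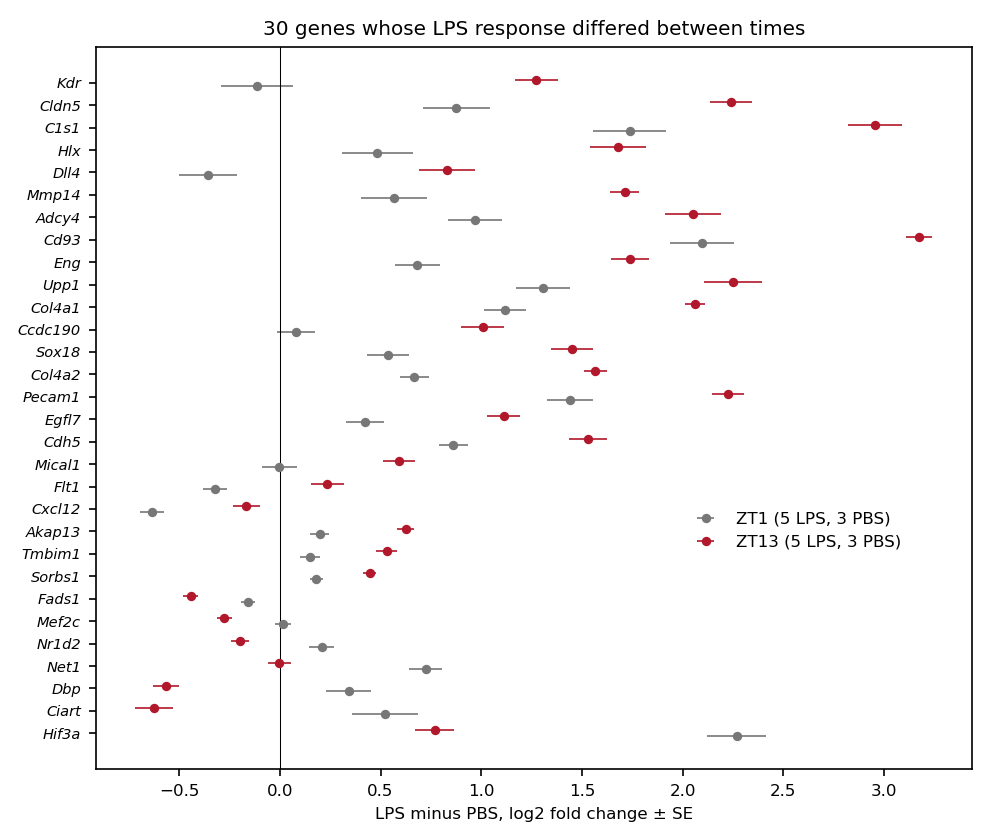
Log2 fold change, LPS minus PBS, with its SE (horizontal axis) at ZT1 (grey) and at ZT13 (red) for the 30 genes with an interaction (rows), each from 5 LPS and 3 PBS mice. For *Kdr* and *Cldn5*, at the top, the ZT13 point lies to the right by 1.39 and 1.36, and for *Hif3a*, at the bottom, to the left with a difference of -1.50.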

How the data were processed

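Cortex RNA of 16 mice was sequenced, and the 8 mice injected at ZT13 were compared (5 LPS, 3 PBS). The authors deposited 1 table of CPM values, in which each library is scaled by its total reads on genes to 1 common sum, with 55774 lines, of which 287 repeated a gene and were dropped, leaving 55487 genes. The submitters' processing notes name bcl2fastq, DRAGEN 4.0.3-8 and GRCm38 without their roles. How strand and shared reads were handled is not given in the sources used here. The step between the lowest CPM values was read as 1 read. Among values of up to 20 reads, 80.7% to 82.8% of values in the 16 samples were whole multiples of it (tolerance 0.01 read), so counts could not be recovered and a planned count test was not run. Floors of 3 reads cover counting error alone.

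Titles gave the groups. The treatment field contradicts 12 of the 16 titles and was not used. A gene was tested when 3 or more of the 16 samples had 1 CPM or more (18859 genes). Values of log2(CPM + 0.5) of the 8 ZT13 samples alone were fitted in limma 3.58.1 under R 4.3.3, letting the variance prior follow the mean level. The Benjamini-Hochberg adjustment ran over all genes tested. Adjusted p under 0.05 defined a DEG. The interaction was fitted on 16 samples with 4 group means. The exact permutation p of a single gene is two-sided, for the difference of mean log2 values, over all 56 arrangements. Fold changes are on the log2(CPM + 0.5) scale, which understates the change of low genes. SE is that of the fit. The fit was tested on simulated data. Coordinates are from GENCODE M21, and promoters from RefSeq. Python 3.11.15, pandas 2.3.3, numpy 2.4.6, scipy 1.17.1 and matplotlib 3.10.9 were used.

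The comparison and the 44 gene lists were chosen with earlier results of these data known. Genes named by rule were the 10 DEGs without overlap that rose most, the 10 that fell most, the first 2 genes and the 3 largest changes of each list, the 5 smallest adjusted p-values and the label checks. Other genes named in the text, the 5 promoters shown and the motif counts within lists were chosen after their values were seen. Some list members are not reported here by name. Alternatives were other pseudocounts, filters and scalings, a fold change limit, no trend, sample quality weights, a single fit, the replicate number as a block and leaving out each mouse. The list counts over members that pass the filter on PBS mice alone were added after the data were seen.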

Additional observations from a re-analysis of the deposited data

Results flagged for a closer look

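Of 180 named genes, 12 had an LPS mouse at ZT13 whose gap to the nearest other LPS mouse, as a share of the range of the 5, was above 0.71, the 95% limit of Dixon's test, which chance passes in about 1 of 20 groups. LPS replicate 1 was low for *Bcl3* (share 0.753, 2.92 CPM) and *Cdh5* (0.746, 27.0 CPM) and high for *Pdgfra* (0.768, 79.1 CPM). LPS replicate 2 was low for *C3* (0.735, 52.6 CPM) and high for *Opalin* (0.718, 5.84 CPM). LPS replicate 4 was high for *Marco* (0.754, 68.1 CPM) and *Yy2* (share 1.00, 0.559 CPM, with the other LPS mice at 0) and low for *Fmo2* (0.723, 0.189 CPM). LPS replicate 5 was low for *Cavin1* (0.730, 44.0 CPM), *H2-Ab1* (0.716, 1.07 CPM) and *Hmox1* (0.724, 5.37 CPM) and high for *Pdgfrb* (0.833, 38.2 CPM).

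The LPS response differed between ZT13 and ZT1 for 10 of the named genes, by the interaction term in limma. The difference in log2 fold change, ZT13 minus ZT1, was 1.39 for *Kdr* (adjusted p = 0.013), 1.36 for *Cldn5* (adjusted p = 0.013), 1.06 for *Eng* (adjusted p = 0.011), 0.94 for *Col4a1* (adjusted p = 0.0038), 0.90 for *Col4a2* (adjusted p = 0.00075), 0.78 for *Pecam1* (adjusted p = 0.041), 0.67 for *Cdh5* (adjusted p = 0.036) and 0.56 for *Flt1* (adjusted p = 0.044). It was -0.91 for *Dbp* (adjusted p = 0.011) and -1.14 for *Ciart* (adjusted p = 0.030). The PBS mean was lower at ZT13 than at ZT1 for each gene with a positive difference, as in *Flt1* (43.8 against 61.5 CPM). It was higher at ZT13 for *Dbp* and *Ciart*, and the differences in response include these differences in the controls.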

How the results depend on the processing

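The number of genes changed by LPS at ZT13 (5401) stayed within 1.5 times under every alternative run except the limit of 0.5 on the absolute log2 fold change, which left 1911, of which 1682 were genes higher after LPS at ZT13 and 229 genes lower after LPS at ZT13. The number lower was 2759 with median-of-ratios factors and 3106 with quantile normalization. Leaving out 1 mouse gave 4329 (without PBS replicate 3) to 5547 (without LPS replicate 5) DEGs, 2947 to 3678 higher and 1243 to 1869 lower. The 30 genes whose LPS response differs between ZT13 and ZT1 became 12 with no filter on low values, 11 with no intensity trend, 3 with the replicate block and 124 with sample quality weights, and 7 to 104 when 1 mouse was left out, with 17 without ZT13 LPS replicate 4 and 19 without ZT13 LPS replicate 5. The cause was not tested. List medians that changed sign with another scaling were those of homeostatic microglia (-0.0093 with median-of-ratios factors, -0.11 with quantile normalization), lymphocytes (-0.15 with quantile normalization) and erythrocytes (-0.15 with quantile normalization), and leaving out 1 mouse also turned those of lymphocytes, erythrocytes, core clock and choroid plexus genes. Of the 180 named genes, 159 were called, and 143 of these under every alternative that tested them, at most 19 a gene. Over 2993 pairs of a called gene and an alternative, 72 lost the call and 0 changed sign. Residual correlations between same-numbered LPS and PBS mice were 0.03, 0.09 and -0.07. Those of LPS replicate 5 with PBS replicates 2 and 3 were -0.11 and 0.119. No pairing by replicate number was seen, but so few values cannot settle whether some mice were paired. With the replicate block there were 4680 DEGs. With 3 PBS mice and 3 reads as the floor, ratios of genes near 0 after PBS are imprecise.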
